A study of Mus musculus with 6 samples.

Results

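Genes of germ cell specification and meiosis were read on 6 mouse microarrays, each labelled in a single colour (Cy5), with 2 arrays for each of 3 groups of ICR cells. The set was a list of 41 gene symbols, and its members were the probes annotated with those symbols. A probe was found for 39 of the 41, with 42 probes in all, among 19084 named genes on the array. Sycp1 and Fkbp6 had no named probe and were not analysed here. The PGC colony group came from the gonads of 67 pooled E11.5 embryos, whose cells were cultured for 7 days in 5% O2 until colonies formed. The GSC colony group came from the testes of 80 pooled mice aged newborn to P2, cultured in the same way. The CD49f+ sorted group came from 100 mice of that age, whose testis cells were selected with magnetic beads for the integrin CD49f and were not cultured. Their oxygen is labelled as physiological hypoxia, with no percentage. Both cultures used laminin (200 ng/cm2) with the growth factor EGF (10 ng/mL), and started from unsorted gonadal or testicular cells. The labels expand PGC as primordial germ cells and GSC as glandular stem cells, and give no sex for the embryos. Culture, CD49f selection and the oxygen label differ together between colonies and sorted cells and cannot be told apart. For PGC colonies against sorted cells, donor age differs with them. Between PGC and GSC colonies, donor age and the organ of origin differ together, and the embryos' sex is not given, so these cannot be told apart either.

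In mice, primordial germ cells are set aside in the early embryo by transcription factors such as Prdm1, Prdm14 and Tfap2c, and reach the gonad, where the RNA-binding protein Dazl lets them take on germ cell fate. In the male they become spermatogonia, and meiosis begins only after birth, when retinoic acid switches on Stra8. Meiotic chromosomes are held by germline cohesins and zipped together by the synaptonemal complex, while Spo11 cuts the DNA and Dmc1 helps to repair it by recombination. Outside the germ line many of these genes are kept silent at CpG-rich promoters, by DNA methylation and by a variant Polycomb complex that contains MGA, MAX and E2F6.

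Promoters are shown for 5 of the 9 members that were lower in PGC than in GSC colonies. Tex11, Tex101, Nanos3 and Tex15, the others, are not shown. None was among the genes with a match to either motif marked below, where a gene without an available window could not appear. The printed windows therefore do not give a motif's share among the 9. A promoter is also shown for Sycp3, a gene of the meiotic chromosome axis whose probe stayed dim on all 6 arrays. Each is the 250 bases before the annotated start, from RefSeq (build GRCm38.p6), written 5′ to 3′. Capitals mark CACGTG, the E-box letters that MGA with MAX can bind, and GCGGGA, an E2F-type motif, each searched on both strands.
Dazl, chr17:50293621-50293870, minus strand: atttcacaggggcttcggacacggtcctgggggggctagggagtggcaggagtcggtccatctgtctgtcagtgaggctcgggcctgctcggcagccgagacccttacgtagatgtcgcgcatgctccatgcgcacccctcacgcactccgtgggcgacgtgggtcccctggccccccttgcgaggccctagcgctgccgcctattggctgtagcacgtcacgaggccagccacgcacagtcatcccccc
Taf7l, chrX:134476491-134476740, minus strand: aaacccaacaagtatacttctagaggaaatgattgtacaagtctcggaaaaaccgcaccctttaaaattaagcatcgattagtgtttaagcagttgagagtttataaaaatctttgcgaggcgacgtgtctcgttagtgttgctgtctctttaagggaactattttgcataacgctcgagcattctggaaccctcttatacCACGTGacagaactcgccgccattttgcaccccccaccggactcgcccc
Syce1, chr7:140787855-140788104, minus strand: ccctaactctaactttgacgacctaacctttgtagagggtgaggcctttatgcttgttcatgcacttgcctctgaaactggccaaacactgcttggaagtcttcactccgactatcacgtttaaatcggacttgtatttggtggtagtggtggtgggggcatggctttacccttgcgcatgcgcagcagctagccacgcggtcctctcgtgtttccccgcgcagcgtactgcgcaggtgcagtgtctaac
Tex12, chr9:50561269-50561518, minus strand: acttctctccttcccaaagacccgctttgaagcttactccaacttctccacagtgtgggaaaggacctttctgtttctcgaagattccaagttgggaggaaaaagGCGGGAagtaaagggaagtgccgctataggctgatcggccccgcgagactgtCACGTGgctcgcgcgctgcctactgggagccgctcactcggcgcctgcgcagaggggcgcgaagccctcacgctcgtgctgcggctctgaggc
Sohlh1, chr2:25847249-25847498, minus strand: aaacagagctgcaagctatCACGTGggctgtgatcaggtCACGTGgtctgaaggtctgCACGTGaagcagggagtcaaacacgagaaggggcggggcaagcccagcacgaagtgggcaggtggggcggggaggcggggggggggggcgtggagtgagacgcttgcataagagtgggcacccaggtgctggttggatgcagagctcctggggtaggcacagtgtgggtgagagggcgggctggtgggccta
Sycp3, chr10:88459337-88459586, plus strand: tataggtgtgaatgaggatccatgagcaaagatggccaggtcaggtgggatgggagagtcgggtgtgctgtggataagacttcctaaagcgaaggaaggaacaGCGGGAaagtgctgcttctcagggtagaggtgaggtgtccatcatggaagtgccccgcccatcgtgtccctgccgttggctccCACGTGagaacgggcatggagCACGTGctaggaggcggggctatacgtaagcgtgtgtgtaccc
The E-box letters began 49 bases before the start in Taf7l and 93 bases before it in Tex12. Sohlh1 had 3 matches, at 231, 211 and 192 bases, and Sycp3 had 2, at 64 and 43 bases. GCGGGA was found in Tex12 at 145 bases and in Sycp3 at 147 bases. The windows of Dazl and Syce1 held neither motif. All 6 windows were rich in CpG dinucleotides, with 20 in Dazl, 14 in Taf7l, 13 in Syce1, 20 in Tex12, 11 in Sohlh1 and 12 in Sycp3, against a median of 6 over all windows.

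A window was available for 32 of the 41 genes. CACGTG was present in 11 of these 32 (34.4%), against 6.86% of all 27025 genes with a window. GCGGGA was present in 9 (28.1%), against 18.8% of all genes. CNCCTCAG, a motif bound by mouse STRA8, was present in 6 (18.8%), against 7.39%, and in none of the printed windows. Genes with the E-box letters included members that differed between groups (Taf7l, Tex12, Sohlh1, Syce2) and tested members that passed in no comparison (Brdt, Stag3). They also included members whose probe was below the test's level on all 6 arrays (Sycp3, Stk31). The members and all genes were not matched for CpG content, and CACGTG and GCGGGA each contain a CpG, so the part of base composition in these shares was not tested. A match describes the letters in this window only.

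Levels are log2 intensities after background correction and quantile normalization between arrays, a scale that understates the change of dim genes. A gene entered the test if it reached the 30th percentile of an array (7.82 on this scale) on at least 2 of the 6 arrays, which kept 15459 genes and 30 of the members. Differences are on the same log2 scale, with the SE from a limma fit over all 6 arrays, and a difference passed at a p under 0.05 adjusted over all genes tested. Where both arrays of the dimmer group were below 7.82, the fold is a lower bound set against that level. Nothing in the labels tells separate preparations from repeat hybridisations within a pair, so the p-values reflect array-to-array spread that could be purely technical. Across genes the 2 arrays of a group correlated at 0.989 for PGC colonies, 0.976 for GSC colonies and 0.99 for sorted cells. In bulk RNA, fewer cells of a type and less RNA per cell cannot be told apart.

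**Figure D1:**
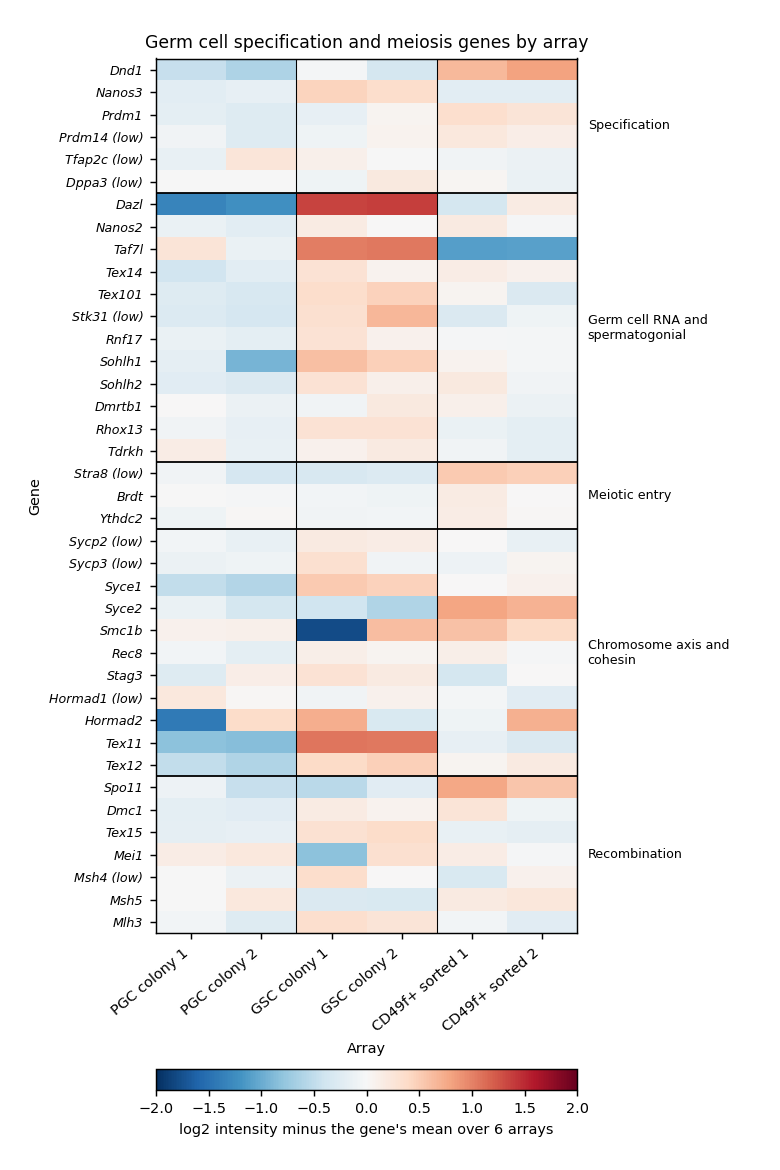
Log2 intensity of the 39 genes with a probe on each array, minus the gene's mean over the 6 arrays (colour), with genes in rows by role and arrays in columns by group; (low) marks the 9 genes that were not tested. Dazl, Tex11, Taf7l, Syce1 and Tex12 are highest on both GSC colony arrays, and Smc1b, Mei1 and Hormad2 differ between arrays of one group.

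Several textbook genes of germ cell specification and meiosis gave little signal in any group. The 9 genes that did not enter the test were Stra8, Prdm14, Tfap2c, Dppa3, Sycp2, Sycp3, Hormad1, Msh4 and Stk31, with levels from 6.40 to 7.88. Of these, 7 were below 7.82 on all 6 arrays, and Prdm14 and Hormad1 reached it on 1 array each. Stra8 measured 6.68 and 6.40 in PGC colonies, 6.43 and 6.47 in GSC colonies, and 7.26 and 7.22 in sorted cells. Sycp3 measured 6.83 and 6.85 in PGC colonies, 7.26 and 6.88 in GSC colonies, and 6.84 and 7.00 in sorted cells. A dim probe does not show that a gene was off, since the probe of the fibroblast collagen gene Col1a1 was also below 7.82 on all 6 arrays, while Col1a2, the other chain of that collagen, was higher in both colony groups than in sorted cells. At the other end, 20 members reached the level on all 6 arrays.

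PGC colonies held lower levels of a set of germ cell and meiosis genes than GSC colonies. Of the 30 tested members, 9 were lower in PGC colonies and 0 higher (limma), beside 7.98% lower and 7.08% higher among all genes tested and 15.1% in either direction. The 9 were Dazl, Tex11, Sohlh1, Syce1, Tex12, Taf7l, Tex101, Nanos3 and Tex15. At an unadjusted p under 0.05, 14 members were lower and 1, Msh5, was higher. The median difference was -0.35 over the tested members and -0.26 over the 39 genes without the filter, against 0.006 and -0.004 for all genes. Syce1, Rnf17, Sohlh1 and Rhox13 reached the level on GSC colony arrays alone and so entered the test through that group. With any single array left out, 7 to 9 members passed. Without GSC colony replicate 2, Smc1b (1.88) and Mei1 (0.99) became higher in PGC colonies, and without PGC colony replicate 1, Msh5 did (0.51).

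Against sorted cells, 9 members were lower in PGC colonies and 1 higher, beside 23.2% lower and 22.8% higher among all genes tested and 46% in either direction. Those lower were Dnd1, Dazl, Syce2, Spo11, Tex12, Tex11, Syce1, Prdm1 and Tex14, and the gene that was higher was Taf7l. Without normalization between arrays 3 were lower and 8 higher, beside 1838 lower and 7573 higher among all 15459 genes tested. The median of all genes was 0.423 in that setting, and the calls on Prdm1, Spo11, Syce1, Tex11, Tex12 and Tex14 were lost.

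In GSC colonies against sorted cells, 9 members were higher and 4 lower, beside 22.5% higher and 24.5% lower among all genes tested and 47.1% in either direction. Taf7l, Dazl, Tex11, Nanos3, Tex101, Tex15, Syce1, Rhox13 and Mlh3 were higher, and Syce2, Spo11, Dnd1 and Msh5 lower. Of those higher, Syce1 and Rhox13 entered the test through the GSC colony arrays alone. Without normalization between arrays 22 were higher and 2 lower, beside 8179 higher and 1732 lower among all 15459 genes tested. The median of all genes was 0.465 in that setting, and the calls on Dnd1 and Msh5 were lost. Without GSC colony replicate 2, the differences of Smc1b (-1.07 with all arrays) and Mei1 (-0.30 with all arrays) were -2.27 and -0.87. The 3 comparisons share arrays, so their counts are not independent.

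**Figure D2:**
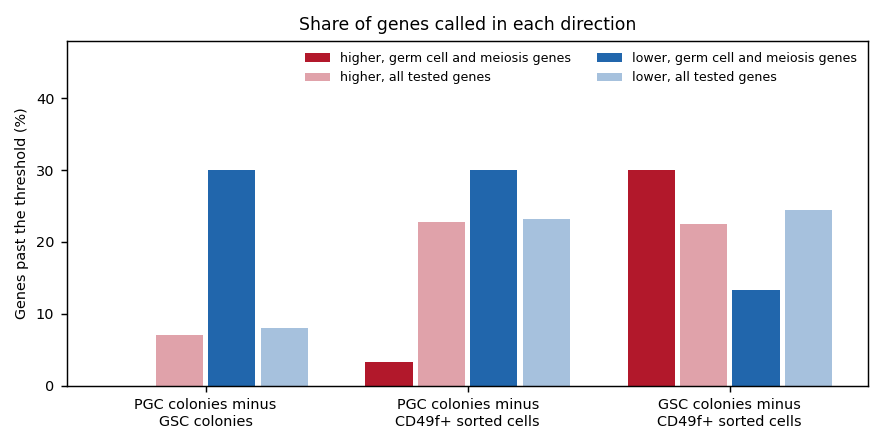
Percent of genes (y axis) that were higher (red) or lower (blue) at adjusted p under 0.05 in each comparison (x axis), for the 30 tested germ cell and meiosis genes (dark) and all 15459 tested genes (pale). In PGC against GSC colonies 9 of 30 members are lower and 0 higher, where 7.98% and 7.08% of all genes are.

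Of the 6 specification genes, 3 were tested. Dnd1, an RNA-binding protein that keeps primordial germ cells alive in mice, measured 10.01 and 9.85 in PGC colonies, 10.43 and 10.11 in GSC colonies, and 11.12 and 11.27 in sorted cells. Both sorted arrays lay above all colony arrays. Dnd1 fell by 1.26 ± 0.15 in PGC colonies (limma adjusted p = 0.00073) and fell by 0.92 ± 0.15 in GSC colonies (adjusted p = 0.0028), each against sorted cells.

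Nanos3, an RNA-binding protein that migrating primordial germ cells need to survive, measured 9.03 and 9.08 in PGC colonies, 9.68 and 9.60 in GSC colonies, and 9.03 and 9.03 in sorted cells. The GSC colony arrays stood above the other 4, which overlapped. Nanos3 fell by 0.58 ± 0.10 in PGC against GSC colonies (limma adjusted p = 0.014), a call lost without GSC colony replicate 1 (adjusted p = 0.1). It was higher in GSC colonies than in sorted cells, by 0.61 ± 0.10 (adjusted p = 0.0035).

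Prdm1, the repressor also called Blimp1 that founds the mouse germ line and acts in plasma cells too, measured 8.04 and 7.98 in PGC colonies, 8.07 and 8.29 in GSC colonies, and 8.57 and 8.49 in sorted cells. The sorted arrays were the highest. Prdm1 fell by 0.52 ± 0.12 in PGC colonies against sorted cells (limma adjusted p = 0.013), and the call was lost without either sorted array (adjusted p = 0.082 without replicate 1 and 0.052 without replicate 2).

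Genes of germ cell RNA binding and of spermatogonia included Dazl, the tested member with the widest difference in PGC against GSC colonies. Of 11 tested, 4 were lower in PGC than in GSC colonies, where 7.98% of all genes were, and 4 were higher in GSC colonies than in sorted cells, where 22.5% of all genes were. These counts include Sohlh1 and Rhox13 respectively, which entered the test through the GSC colony arrays alone. Dazl measured 7.42 and 7.51 in PGC colonies, 10.09 and 10.12 in GSC colonies, and 8.39 and 8.91 in sorted cells. The deposited intensities behind these levels were 156.4 and 134.8 in PGC colonies, 1200.1 and 1226.2 in GSC colonies, and 216.3 and 340.9 in sorted cells. The groups did not overlap, with GSC colonies highest and PGC colonies below the level of 7.82. Dazl was at least 4.87-fold lower in PGC than in GSC colonies (limma adjusted p = 0.00034) and at least 1.78-fold lower than in sorted cells (adjusted p = 0.0022). In GSC colonies it exceeded sorted cells by 1.45 ± 0.18 (adjusted p = 0.00089). These calls held in every alternative run.

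Taf7l, a germ cell partner of the general transcription factor TFIID that also acts in fat cells, followed another order. It measured 10.01 and 9.62 in PGC colonies, 10.78 and 10.82 in GSC colonies, and 8.66 and 8.67 in sorted cells. The groups did not overlap, and the sorted arrays were the lowest. Taf7l fell by 0.98 ± 0.15 in PGC against GSC colonies (limma adjusted p = 0.0082). It exceeded sorted cells by 1.15 ± 0.15 in PGC colonies (adjusted p = 0.0012) and by 2.13 ± 0.15 in GSC colonies (adjusted p = 7.6e-05).

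Tex101, a surface glycoprotein of germ cells, measured 8.25 and 8.19 in PGC colonies, 8.86 and 8.98 in GSC colonies, and 8.57 and 8.23 in sorted cells. The GSC colony arrays were the highest, while the other groups overlapped. Tex101 fell by 0.69 ± 0.14 in PGC against GSC colonies (limma adjusted p = 0.024), a call lost without either PGC colony array or GSC colony replicate 2 (-0.72 to -0.64, adjusted p = 0.07 to 0.098). It was higher in GSC colonies than in sorted cells by 0.52 ± 0.14 (adjusted p = 0.025), a call lost without GSC colony replicate 2 or CD49f+ sorted replicate 2 (0.35 to 0.46, adjusted p = 0.097 to 0.15).

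Sohlh1, a transcription factor of differentiating spermatogonia, measured 7.35 and 6.60 in PGC colonies, 8.14 and 8.01 in GSC colonies, and 7.60 and 7.49 in sorted cells. It was at least 1.19-fold lower in PGC than in GSC colonies (limma adjusted p = 0.029). That call was lost with a floor of 16 in place of the background correction (adjusted p = 0.056), and with only the 2 groups compared (adjusted p = 0.058). The fitted difference of -1.10 was -0.72 without PGC colony replicate 2, and the adjusted p was 0.058 without either sorted array. Without PGC colony replicate 1 it also passed as lower in PGC colonies than in sorted cells (-0.95), and without either PGC colony array as higher in GSC colonies than in sorted cells (0.53). Its partner Sohlh2 measured 10.53 and 10.46 in PGC colonies, 11.04 and 10.85 in GSC colonies, and 10.95 and 10.69 in sorted cells, and passed in no comparison.

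Tex14, which keeps dividing germ cells joined by bridges, measured 9.15 and 9.32 in PGC colonies, 9.82 and 9.60 in GSC colonies, and 9.68 and 9.62 in sorted cells. The PGC colony arrays were the lowest. Tex14 fell by 0.41 ± 0.13 in PGC colonies against sorted cells (limma adjusted p = 0.039), a call lost without PGC colony replicate 1 or either sorted array (-0.44 to -0.33, adjusted p = 0.12 to 0.16). A fit with same-numbered arrays as a block also lost the Tex14 call. Against GSC colonies its difference was -0.47 ± 0.13 (adjusted p = 0.057).

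Rhox13, a homeobox gene of the reproductive cluster on the X chromosome, measured 7.69 and 7.60 in PGC colonies, 8.05 and 8.05 in GSC colonies, and 7.64 and 7.57 in sorted cells. The GSC colony arrays were the highest and the other groups overlapped. In GSC colonies it was at least 1.17-fold higher than in sorted cells (limma adjusted p = 0.014), a call lost without any of the 4 arrays compared (0.41 to 0.47, adjusted p = 0.06 to 0.092). Median centring of each array also lost the Rhox13 call. In PGC against GSC colonies its difference was -0.40 ± 0.10 (adjusted p = 0.052).

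Nanos2, an RNA-binding protein that keeps spermatogonial stem cells undifferentiated, measured 10.85 and 10.76 in PGC colonies, 11.14 and 10.99 in GSC colonies, and 11.16 and 10.96 in sorted cells. It passed in no comparison, nor did Rnf17 and Tdrkh, both Tudor proteins, or Dmrtb1, a factor at the passage into meiosis. Their levels ran from 7.61 to 8.10, from 8.37 to 8.74 and from 8.15 to 8.46.

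**Figure D3:**
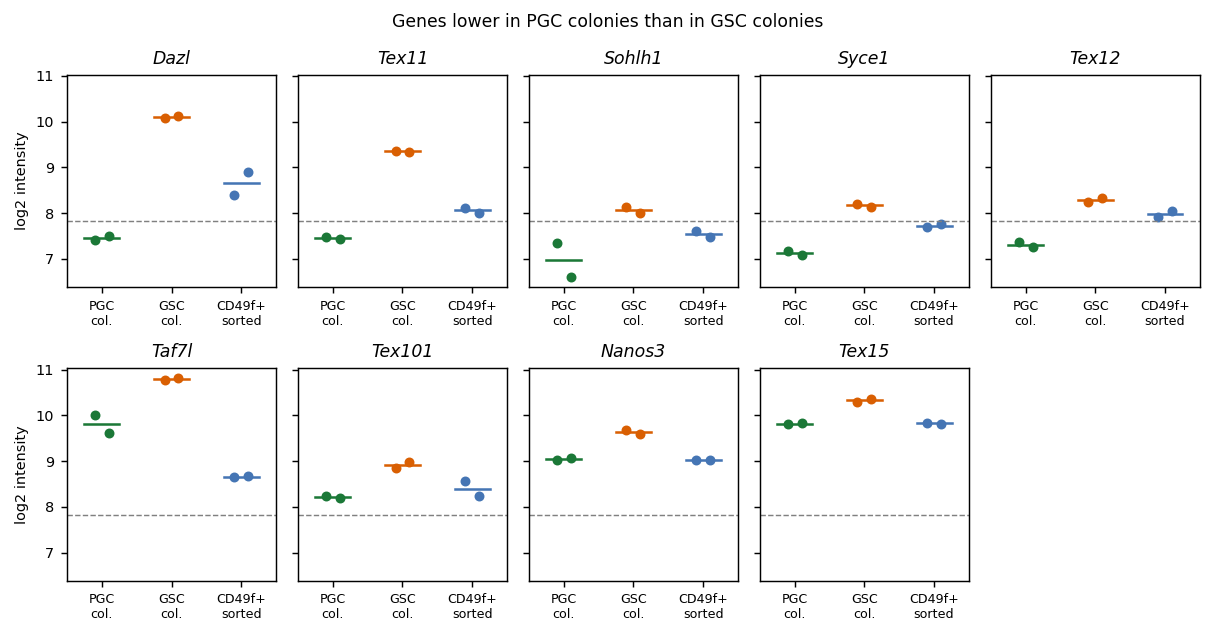
Log2 intensity (y axis) on each array (points), with the group mean (bar), for the 9 genes lower in PGC than in GSC colonies; the dashed line is the level of 7.82. The GSC colony arrays are the highest for all 9, and Dazl, Tex11, Sohlh1, Syce1 and Tex12 lie below the line in PGC colonies.

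Genes of meiotic entry showed no difference that passed. Ythdc2, an RNA helicase that lets germ cells leave mitosis, ran from 9.98 to 10.21 over the 6 arrays. Brdt, a testis bromodomain protein, ran from 9.39 to 9.63, and its other probe from 8.15 to 8.49.

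Of 8 tested genes of the synaptonemal complex, chromosome axis and cohesin, 3 were lower in PGC than in GSC colonies, where 7.98% of all genes were. Among them, Syce1 entered the test through the GSC colony arrays alone. Tex11, an X-linked gene whose product promotes crossovers, measured 7.47 and 7.44 in PGC colonies, 9.36 and 9.34 in GSC colonies, and 8.12 and 8.00 in sorted cells. The groups did not overlap. Tex11 was at least 2.88-fold lower in PGC than in GSC colonies (limma adjusted p = 0.00017) and at least 1.18-fold lower than in sorted cells (adjusted p = 0.0039). GSC colonies exceeded sorted cells by 1.29 ± 0.11 (adjusted p = 0.00014).

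Syce1, a central element protein of the synaptonemal complex, measured 7.18 and 7.09 in PGC colonies, 8.20 and 8.14 in GSC colonies, and 7.69 and 7.77 in sorted cells. The groups did not overlap, and only the GSC colony arrays reached 7.82. Syce1 was at least 1.27-fold lower in PGC than in GSC colonies (limma adjusted p = 0.0017). With both groups below the level, its fitted difference from sorted cells in PGC colonies was -0.59 ± 0.11 (adjusted p = 0.0045). In GSC colonies it was at least 1.27-fold higher than in sorted cells (adjusted p = 0.015), a call lost without any of the 4 arrays compared (0.40 to 0.48, adjusted p = 0.061 to 0.099).

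Tex12, another central element protein, measured 7.37 and 7.25 in PGC colonies, 8.24 and 8.34 in GSC colonies, and 7.91 and 8.04 in sorted cells. The groups did not overlap, in the same order as for Dazl. Tex12 was at least 1.39-fold lower in PGC than in GSC colonies (limma adjusted p = 0.0029) and at least 1.11-fold lower than in sorted cells (adjusted p = 0.004). In GSC colonies against sorted cells the difference was 0.32 ± 0.11 (adjusted p = 0.064).

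Syce2, also of the central element, was highest in sorted cells. It measured 11.49 and 11.28 in PGC colonies, 11.22 and 11.02 in GSC colonies, and 12.42 and 12.32 in sorted cells. Syce2 fell by 0.98 ± 0.13 in PGC colonies (limma adjusted p = 0.0013) and fell by 1.25 ± 0.13 in GSC colonies (adjusted p = 0.00046), each against sorted cells. Its dimmer probe gave differences of -1.0 and -0.93.

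Germline cohesin genes passed in no comparison. Rec8, the meiotic kleisin, ran from 9.44 to 9.74, and Stag3 ran from 7.85 to 8.48. Smc1b, the meiotic SMC subunit, measured 8.59 and 8.61 in PGC colonies, 6.72 and 9.12 in GSC colonies, and 9.09 and 8.89 in sorted cells. Hormad2, an axis protein that monitors synapsis, measured 7.81 and 9.60 in PGC colonies, 9.96 and 8.92 in GSC colonies, and 9.15 and 9.95 in sorted cells. For both genes the 2 arrays of a group could differ by more than the group means did.

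Of 6 tested recombination genes, those that passed moved in both directions. Spo11, which makes the DNA breaks of meiosis, measured 8.97 and 8.62 in PGC colonies, 8.54 and 8.85 in GSC colonies, and 9.85 and 9.63 in sorted cells. The sorted arrays were the highest and the colony groups overlapped. Spo11 fell by 0.95 ± 0.18 in PGC colonies (limma adjusted p = 0.0054) and fell by 1.04 ± 0.18 in GSC colonies (adjusted p = 0.0035), each against sorted cells.

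Tex15, needed for break repair and for transposon silencing in fetal male germ cells, measured 9.81 and 9.83 in PGC colonies, 10.30 and 10.37 in GSC colonies, and 9.84 and 9.82 in sorted cells. The GSC colony arrays were the highest and the other groups overlapped. Tex15 fell by 0.52 ± 0.10 in PGC against GSC colonies (limma adjusted p = 0.02), a call lost without any array but PGC colony replicate 1 (-0.55 to -0.48, adjusted p = 0.05 to 0.11). That call was also lost with only the PGC and GSC colony arrays fitted. Tex15 was higher in GSC colonies than in sorted cells by 0.51 ± 0.10 (adjusted p = 0.0071), a call lost without GSC colony replicate 2 (0.47).

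Mlh3, a crossover protein of the mismatch repair family that other tissues express too, measured 11.78 and 11.57 in PGC colonies, 12.17 and 12.08 in GSC colonies, and 11.77 and 11.61 in sorted cells. GSC colonies gave the highest values. Mlh3 was higher in GSC colonies than in sorted cells by 0.43 ± 0.13 (limma adjusted p = 0.031), a call lost without any of the 4 arrays compared (0.36 to 0.51, adjusted p = 0.066 to 0.17).

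Msh5, which stabilises crossover intermediates, measured 7.96 and 8.18 in PGC colonies, 7.67 and 7.66 in GSC colonies, and 8.14 and 8.19 in sorted cells. Both GSC colony arrays lay lowest. Msh5 was at least 1.27-fold lower in GSC colonies than in sorted cells (limma adjusted p = 0.014), a call lost without any of the 4 arrays compared (-0.53 to -0.47, adjusted p = 0.058 to 0.084). In PGC against GSC colonies its difference was 0.40 ± 0.12 (adjusted p = 0.075).

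Dmc1, the meiotic recombinase, and Mei1, needed for break formation in mice, passed in no comparison. Dmc1 ran from 9.19 to 9.67 on its brighter probe and lay below 7.82 on all 6 arrays on the other. Mei1 measured 9.27 and 9.34 in PGC colonies, 8.31 and 9.45 in GSC colonies, and 9.27 and 9.10 in sorted cells, with GSC colony replicate 1 apart from the other 5 arrays.

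**Figure D4:**
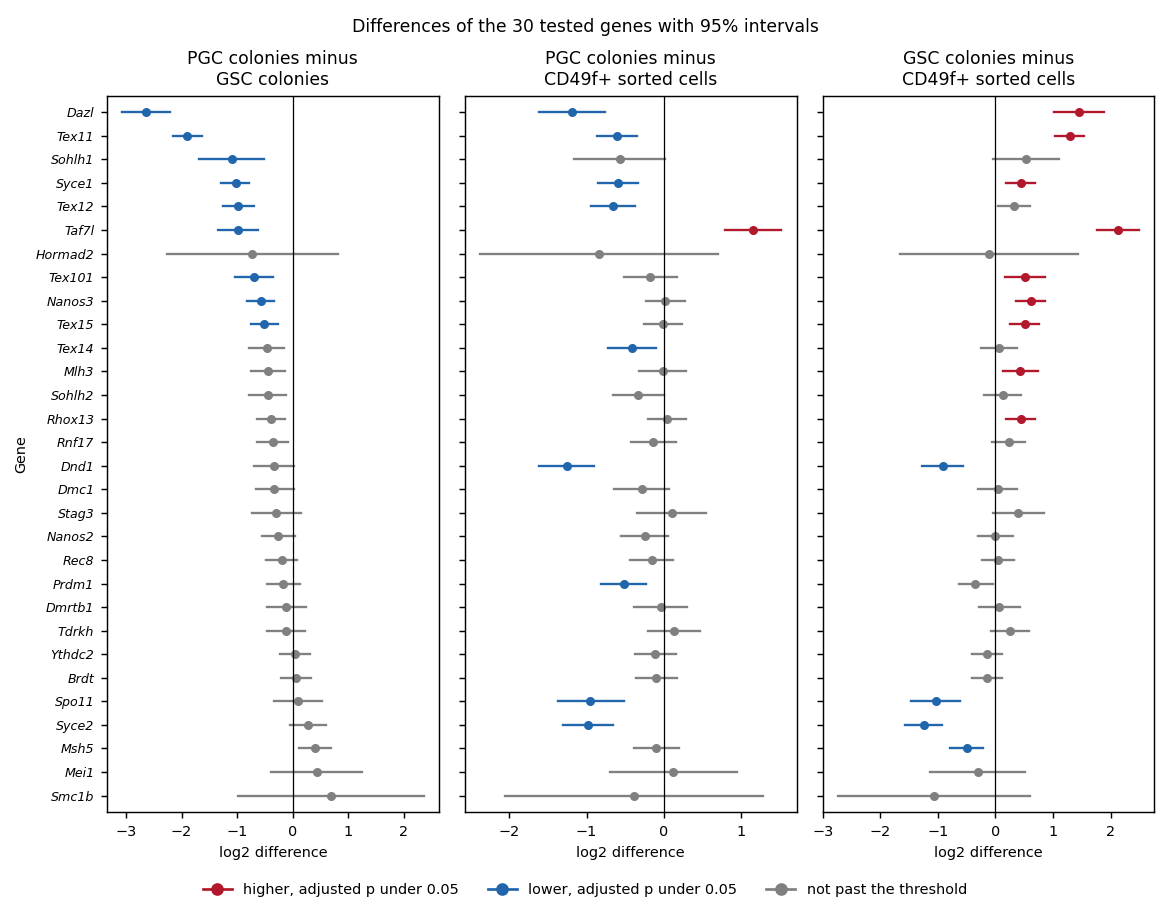
Log2 difference (x axis) with its 95% interval, not adjusted for the number of genes, for the 30 tested genes (y axis) in the 3 comparisons; red and blue mark genes higher and lower at adjusted p under 0.05. Dazl falls furthest in PGC against GSC colonies, and Taf7l rises furthest in GSC colonies against sorted cells.

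Other meiosis genes were read from a further 42 symbols, of which 38 had a probe and 27 were tested. In PGC against GSC colonies 5 were lower and 0 higher, beside 7.98% and 7.08% of all genes. In PGC colonies against sorted cells 15 were lower and 3 higher, beside 23.2% and 22.8% of all genes. In GSC colonies against sorted cells 9 were lower and 4 higher, beside 24.5% and 22.5%. Rec114, a partner of the break machinery, measured 6.68 and 7.08 in PGC colonies, 8.97 and 8.88 in GSC colonies, and 8.30 and 8.32 in sorted cells, and was at least 2.15-fold lower in PGC than in GSC colonies (limma adjusted p = 0.00049). Psma8, a testis proteasome subunit, fell by 1.67 ± 0.25 in the same comparison (adjusted p = 0.0079) and fell by 1.57 ± 0.25 in PGC colonies against sorted cells (adjusted p = 0.0028). Exo1, a nuclease that dividing cells also use in DNA repair, fell by 2.13 ± 0.12 in PGC colonies and fell by 1.69 ± 0.12 in GSC colonies against sorted cells (adjusted p = 3.3e-05 and 7.4e-05). Mnd1, a cofactor of Dmc1, fell by 1.84 ± 0.14 in PGC colonies and fell by 1.91 ± 0.14 in GSC colonies (adjusted p = 0.0001 and 8e-05). Tex19.1, which guards germ cells against transposons, fell by 1.19 ± 0.10 in PGC against GSC colonies (adjusted p = 0.00093) and was higher in GSC colonies than in sorted cells by 0.71 ± 0.10 (adjusted p = 0.0019). In PGC colonies against sorted cells Tex19.1 fell by 0.48 ± 0.10 (adjusted p = 0.01). Spdya, an activator of CDK2 at meiotic telomeres, was higher than in sorted cells by 0.71 ± 0.13 in PGC colonies and by 0.68 ± 0.13 in GSC colonies (adjusted p = 0.0049 and 0.0056). Hspa2, a chaperone of spermatocytes, was higher than in sorted cells in PGC colonies by 0.74 ± 0.17 and in GSC colonies by 0.92 ± 0.17 (adjusted p = 0.013 and 0.0051).

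Germ cell identity genes outside the list were read from 30 symbols, of which 29 had a probe and 23 were tested. In PGC against GSC colonies 4 were lower and 3 higher, beside 7.98% and 7.08% of all genes. In PGC colonies against sorted cells 7 were lower and 3 higher, beside 23.2% and 22.8%. In GSC colonies against sorted cells 8 were lower and 5 higher, beside 24.5% and 22.5%. Mael, a germ cell protein of transposon silencing, measured 7.94 and 7.96 in PGC colonies, 9.93 and 10.06 in GSC colonies, and 8.88 and 8.92 in sorted cells, in the same order as Dazl, and fell by 2.04 ± 0.11 in PGC against GSC colonies (limma adjusted p = 0.00013). Zbtb16, a factor of spermatogonial stem cells also found in mesenchyme, measured 6.90 and 7.35 in PGC colonies, 10.47 and 10.43 in GSC colonies, and 7.07 and 7.09 in sorted cells. It was at least 6.17-fold lower in PGC than in GSC colonies (adjusted p = 0.00011), and at least 6.17-fold higher in GSC colonies than in sorted cells (adjusted p = 1.7e-05).

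Ddx4, the germ cell helicase also called Vasa, measured 9.96 and 9.72 in PGC colonies, 10.24 and 10.27 in GSC colonies, and 10.10 and 9.89 in sorted cells, and passed in no comparison. Pou5f1, the pluripotency factor OCT4, fell by 1.13 ± 0.11 in PGC against GSC colonies (limma adjusted p = 0.0012). It was higher in GSC colonies than in sorted cells by 0.91 ± 0.11 (adjusted p = 0.00066). Kit, a receptor of primordial germ cells and differentiating spermatogonia, fell by 0.95 ± 0.16 in PGC colonies and fell by 1.14 ± 0.16 in GSC colonies against sorted cells (adjusted p = 0.0037 and 0.0016). Sox2, a pluripotency and neural factor, measured 9.44 and 9.77 in PGC colonies, 6.46 and 6.59 in GSC colonies, and 6.53 and 6.51 in sorted cells. It was at least 3.45-fold higher in PGC than in GSC colonies (adjusted p = 8.4e-05) and at least 3.45-fold higher than in sorted cells (adjusted p = 1.6e-05).

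Ifitm3, a membrane protein of early germ cells that many other cells make too, measured 15.74 and 15.86 in PGC colonies, 16.31 and 16.14 in GSC colonies, and 12.39 and 12.52 in sorted cells. Both colony groups lay far above the sorted arrays, by 3.34 ± 0.12 in PGC colonies (limma adjusted p = 7.6e-06) and 3.77 ± 0.12 in GSC colonies (adjusted p = 4.1e-06). Id4, a marker of spermatogonial stem cells with roles in other tissues, was higher in PGC than in GSC colonies by 2.40 ± 0.15 (adjusted p = 0.00025). Against sorted cells Id4 was higher by 0.98 ± 0.15 in PGC colonies and fell by 1.42 ± 0.15 in GSC colonies (adjusted p = 0.0025 and 0.00047). Alpl, the alkaline phosphatase used to stain primordial germ cells, fell by 2.81 ± 0.17 in PGC colonies and fell by 2.52 ± 0.17 in GSC colonies against sorted cells (adjusted p = 4.1e-05 and 5.9e-05). Epcam, an adhesion protein of germ cells and epithelia, fell by 2.04 ± 0.11 in PGC colonies and fell by 1.87 ± 0.11 in GSC colonies against sorted cells (adjusted p = 3.2e-05 and 3.8e-05). Uchl1, an enzyme of spermatogonia and neurons, fell by 1.80 ± 0.15 in PGC colonies and fell by 2.02 ± 0.15 in GSC colonies against sorted cells (adjusted p = 0.00018 and 0.0001).

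**Figure D5:**
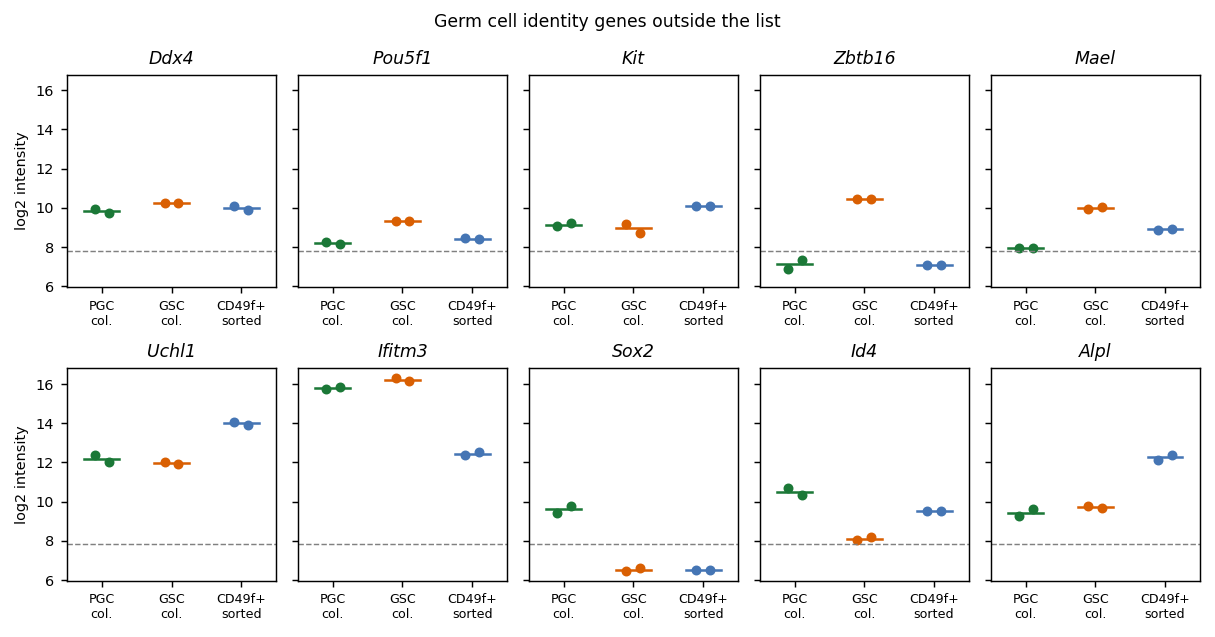
Log2 intensity (y axis) on each array (points), with the group mean (bar), for 10 germ cell identity genes outside the list; the dashed line is the level of 7.82. Mael and Zbtb16 are highest in GSC colonies, Sox2 and Id4 in PGC colonies, and Kit, Uchl1 and Alpl in sorted cells.

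Regulators of germline gene silencing numbered 16 tested genes. In PGC against GSC colonies 3 were higher and 0 lower, beside 7.08% and 7.98% of all genes. Among the 3 were the DNA methyltransferase Dnmt3a (0.74 ± 0.13, limma adjusted p = 0.014) and the chromatin scaffold Wdr5 (0.50 ± 0.12, adjusted p = 0.04). In GSC colonies against sorted cells Dnmt3a and Wdr5 were lower (-0.55 ± 0.13 and -0.70 ± 0.12, adjusted p = 0.015 and 0.0035). In PGC colonies against sorted cells 6 were lower and 0 higher, beside 23.2% and 22.8% of all genes, and in GSC colonies 8 were lower and 1 higher, beside 24.5% and 22.5%. Uhrf1, which directs DNA methylation at replication, fell by 1.66 ± 0.11 in PGC colonies and fell by 1.67 ± 0.11 in GSC colonies against sorted cells (adjusted p = 6.2e-05 and 5.6e-05). E2f6 fell by 0.98 ± 0.13 in PGC colonies and fell by 1.08 ± 0.13 in GSC colonies against sorted cells (adjusted p = 0.0012 and 0.0008). The DNA methyltransferase Dnmt3b measured 9.24 and 9.53 in PGC colonies, 7.54 and 8.99 in GSC colonies, and 10.76 and 10.51 in sorted cells, with the GSC colony arrays far apart, and fell by 2.37 ± 0.43 in GSC colonies against sorted cells (adjusted p = 0.0049). Max, the partner of MGA, was the gene higher in GSC colonies than in sorted cells (0.89 ± 0.22, adjusted p = 0.016).

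Markers of other cell types moved with the same groups, and their part in these results was not tested. Summed levels are given in units of 1000 on the normalized intensity scale. The marker counts below stand beside these shares of all genes tested. In PGC against GSC colonies 7.98% were lower and 7.08% higher. Against sorted cells 23.2% were lower and 22.8% higher in PGC colonies, and 24.5% lower and 22.5% higher in GSC colonies. Germ cell markers summed to 23.4 to 29.9 in PGC colonies, 30.3 to 32.2 in GSC colonies and 35.6 to 41.5 in sorted cells, with Sall4 below 7.82 on all 6 arrays. Of the 10 germ cell markers tested, 4 were lower and 0 higher in PGC than in GSC colonies. Against sorted cells 4 were lower and 0 higher in PGC colonies, and 4 higher and 3 lower in GSC colonies. Ddx4, Kit, Mael, Pou5f1, Uchl1 and Zbtb16 are also among the germ cell identity genes above, so the counts of these lists are not independent. In GSC colonies against sorted cells the median difference of the germ cell markers was 0.27, opposite in sign to their sums. Bright genes weigh most in the sums, such as Uchl1 (12.38 and 12.01 in PGC colonies, 12.01 and 11.92 in GSC colonies, and 14.08 and 13.90 in sorted cells). Mesenchyme markers summed to 258 to 269 in PGC colonies, 508 to 523 in GSC colonies and 22.3 to 25.2 in sorted cells. Of the 9 tested, all 9 were higher in each colony group than in sorted cells, and 6 were lower and 2 higher in PGC than in GSC colonies. Muscle-like (myoid) markers summed to 37.0 to 38.8 in PGC colonies, 75.6 to 76.4 in GSC colonies and 5.31 to 5.4 in sorted cells, and 4 of 4 were lower in PGC than in GSC colonies. Sertoli cell markers summed to 244 to 267 in PGC colonies, 333 to 334 in GSC colonies and 888 to 964 in sorted cells. Of 12 tested, 12 were lower in PGC colonies and 11 in GSC colonies than in sorted cells. In PGC against GSC colonies 3 of the Sertoli cell markers were lower and 1 higher, with a median difference of 0.00. Leydig cell markers summed to 21.6 to 21.7 in PGC colonies, 23.7 to 24.5 in GSC colonies and 77.6 to 81.0 in sorted cells. Macrophage markers summed to 8.25 to 8.29 in PGC colonies, 6.21 to 6.35 in GSC colonies and 90.2 to 91.3 in sorted cells. Erythroid markers summed to 1.77 to 2.09 in PGC colonies, 0.987 to 0.996 in GSC colonies and 4.05 to 4.1 in sorted cells. Endothelial markers summed to 7.42 to 7.66 in PGC colonies, 17.7 to 17.8 in GSC colonies and 46.3 to 48.7 in sorted cells. Of the 8 endothelial markers tested, 2 were lower and 1 higher in PGC than in GSC colonies, with a median difference of -0.18. Emcn, a bright gene that weighs most in that gap, measured 10.79 and 10.87 in PGC colonies and 13.61 and 13.59 in GSC colonies. In GSC colonies against sorted cells 7 were lower and 1, Emcn, higher.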

How the data were processed

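Each of 6 arrays measured 1 Cy5-labelled RNA sample. The deposited values were linear probe intensities, some below 0 on 4 arrays, as the authors' table gives them; the sources used here do not give the background method, scanner or scaling. The deposited medians were 541 to 606 in the colony groups and 393 and 406 in sorted cells. Depth is known only as signal over the filter level, and precision is limited by the small number of arrays.

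Intensities were background corrected (normexp, offset 50), log2-transformed and quantile normalized. Probes were named from the platform annotation: of 26423, 21876 had 1 symbol, 0 several and 4547 none. For genes with several probes the one with the highest mean was used. Group means were fitted with limma 3.58.1 in R 4.3.3 (lmFit and eBayes, 3 residual degrees of freedom, no block), with Benjamini-Hochberg adjustment over 15459 genes. The fit was tested on simulated data. Values on every array are given for members past the threshold in any comparison, and for some others, chosen after their values were seen, that show dim probes or arrays that differ. Of the meiosis, identity and silencing lists, up to 2 genes with the largest rise and 2 with the largest fall that passed are named per comparison, plus Ddx4, Pou5f1 and Kit. Members and lists were chosen with earlier results of these data known. Alternatives changed the background step, normalization, filter, probe rule, samples fitted and block, and left out each array.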

Additional observations from a re-analysis of the deposited data

How the results depend on the processing

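Across 16 alternatives per comparison, 15 of 32 gene calls held in every one in which the gene was tested, among them all calls on Dazl and Taf7l. Syce1 and Tex12, in PGC against GSC colonies, were not tested under the 50th percentile filter. Members that passed in PGC against GSC colonies numbered 9, with 6 to 12 under the alternatives and 7 to 9 with an array left out. In PGC colonies against sorted cells they numbered 10, with 7 to 11 and 8 to 10. In GSC colonies against sorted cells they numbered 13, with 8 to 14 with an array left out and 24 without normalization between arrays. That setting also turned round differences that passed in either setting, in PGC colonies against sorted cells to 0.33 for Brdt, 0.49 for Mlh3, 0.02 for Tex14, 0.41 for Tex15 and 0.33 for Ythdc2, and in GSC colonies against sorted cells, to 0.30 for Brdt and 0.34 for Ythdc2. Differences that passed in neither setting changed sign for 9 and 3 further members there, and for 1 in PGC against GSC colonies. The median of all genes was 0.423 and 0.465 there, and -0.031 in PGC against GSC colonies. The 50th percentile filter left 18 members to test. How many of all genes passed also changed with the setting, so a change in the member counts is not particular to the members. Where 1 array of a group was left out, the other was assumed to vary like the other groups.

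Deviations of same-numbered arrays correlated at -0.179 (PGC with GSC colonies), 0.326 (PGC colonies with sorted cells) and -0.342 (GSC colonies with sorted cells), so the numbers were not taken as pairs. Exchanging the GSC colony numbers turns both negative values positive, and whether arrays share a batch was not tested. With the replicate block 9, 9 and 13 members passed in the order above, and with the GSC colony numbers crossed, an alternative chosen after seeing the data, 10, 11 and 15.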
